A study of Sus scrofa with 20 samples.

Results

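The comparison concerns 12 of 20 backfat RNA libraries from Italian Large White pigs, the 6 highest and the 6 lowest in a score of 4 macrophage transcripts. The 12 were selected on measured values. A macrophage score was taken for each library as the mean of log2(CPM + 1) over 4 loci, those of LYZ, MSR1, C1QA and CSF1R, where CPM is the read count of a locus divided by the total of its library and scaled to a common total. The 6 highest-scoring libraries were castrated male 1, castrated male 6, castrated male 8, female 2, female 1 and female 3. The 6 lowest-scoring were female 5, castrated male 7, castrated male 5, female 4, female 8 and female 7. The other 8 libraries lay in between and entered no comparison of the sets. Since measured values chose the animals, the comparison describes what varied along with the score and not the effect of a treatment.

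Per the labels, all of the animals were fed alike, shared their housing, weighed 150 to 160 kg and went to a commercial slaughterhouse. Backfat, the subcutaneous fat along the spine, was frozen in liquid nitrogen, and polyadenylated RNA was sequenced. The labels name no treatment, disease or sequencing batch, and give each library its own animal number. Each library is named after its labelled sex, with a running number in deposition order that pairs nothing. The 6 highest came from 3 females and 3 castrated males aged 235 to 247 days, and the 6 lowest from 4 females and 2 castrated males aged 237 to 249 days.

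Macrophages are phagocytes that live in fat beside adipocytes, vessels and fibroblasts, where they clear dead cells, take up lipid and sense injury and microbes. They depend on the growth factor receptor CSF1R and carry scavenger receptors, lysosomal proteases and complement components. In obese or damaged fat, blood monocytes add to the resident cells, and macrophages gather around dying adipocytes, where some fuse. The bulk RNA of a tissue piece mixes all of these cells, so fewer cells of a type and less RNA per cell cannot be told apart.

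The 4 scoring loci separated the sets by construction, and their values are a description only. The score uses CPM as defined above, while the CPM of single loci given from here on are also scaled with TMM factors, which correct for differences in composition between libraries. LYZ, the lysozyme that breaks bacterial cell walls, had 18.1, 75.7 and 168 CPM (lowest, median and highest) in the 6 highest libraries and 2.84, 4.63 and 8.09 CPM in the 6 lowest. MSR1, a scavenger receptor for modified lipoproteins, had 15.6, 42.2 and 115 CPM against 5.05, 8.71 and 15.3 CPM. C1QA, a chain of the complement starter C1q, had 113, 129 and 389 CPM against 23.5, 50.1 and 90.2 CPM. CSF1R had 47.7, 66.4 and 112 CPM against 13.5, 25.9 and 40.6 CPM. None of the 4 loci overlapped between the sets, although MSR1 came close to it.

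The score itself ran from 7.60 in castrated male 1 down to 5.35 in female 3 among the 6 highest. Among the 6 lowest it ran from 4.62 in female 5 to 3.31 in female 7, and the means of the sets differed by 2.17. Castrated male 1 stood apart from the second library, castrated male 6, at 6.63. At the upper edge, castrated male 3 just missed the highest set with 5.29. At the lower edge, castrated male 9 just missed the lowest set with 4.72.

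**Figure D1:**
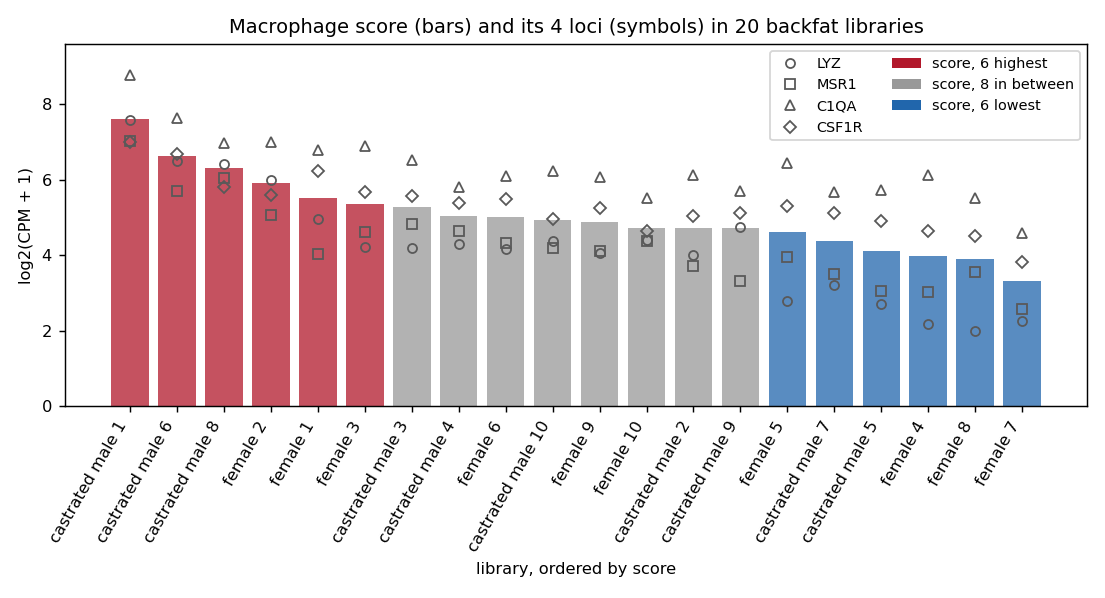
The bars give the macrophage score of each of the 20 libraries and the symbols the log2(CPM + 1) of its 4 loci, without TMM scaling (y axis), with libraries ordered by score on the x axis. Scores fall from 7.60 in castrated male 1 to 3.31 in female 7 without a gap at the edges of the red (6 highest) and blue (6 lowest) sets.

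The sets were compared on 5 properties, each with a two-sided exact permutation test over 924 splits, whose smallest possible p is 0.00216. Of these, the total count also enters the score, as the divisor of CPM. Ages averaged 240 ± 4.15 days in the 6 highest and 245 ± 5.13 days in the 6 lowest (SD, n = 6 each), a difference of -4.67 days (exact p = 0.136, adjusted over the 5 properties 0.341). Over all 20 libraries the score and age had Pearson r = -0.42 (permutation p = 0.0639, adjusted 0.319) and Spearman rho = -0.32 (p = 0.171, adjusted 0.762). Without the 2 libraries farthest from the median score, r was -0.38, and within the sexes r was -0.48 in the 10 labelled females and -0.24 in the 10 labelled castrated males, and -0.51 and -0.23 without the libraries numbered 10, an alternative added after seeing the data. Total counts were 35852229 to 51248122 in the 12 libraries (exact p = 0.121 between the sets). The share of counts at mitochondrially encoded loci averaged 15.6% in the highest and 14.1% in the lowest (exact p = 0.487). Castrated male 1 was lowest of all 20 at 8.49%. The share of the 10 most abundant loci (exact p = 0.784) and the number of loci with at least 10 counts (exact p = 0.838) complete the 5. The sets did not differ past the threshold in labelled sex either (Fisher's exact p = 1). Among the 8 libraries in between, the libraries labelled female 10 and castrated male 10 went against their labels at loci that separated the sexes in the other 18. Neither is among the 12.

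Across the 21689 loci tested outside the score, 249 were higher and 99 lower in the 6 highest-scoring libraries (edgeR quasi-likelihood test, Benjamini-Hochberg adjusted p below 0.05). These are 1.15% and 0.456% of the loci tested, or 1.6% in both directions. Higher loci had a median log2 difference (highest minus lowest) of 1.47 and lower loci one of -1.62, while the median over all tested loci was -0.02. Of the 348 loci called, 246 did not overlap between the sets, as did 1.97% of all tested loci. With DESeq2 the calls were 678 higher (3.13%) and 462 lower (2.13%), so that higher loci made up 59.5% of calls in place of 71.6%.

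The number of calls rested on individual libraries. Leaving out castrated male 5 left 20 calls, female 4 left 33, female 8 left 56, castrated male 6 left 82, female 7 left 90 and castrated male 1 left 115 (0.524% of the loci tested). Of the 59 named loci called, these 6 omissions, in the same order, left 9, 11, 15, 25, 22 and 35. Leaving out any of the other 6 libraries gave 246 to 369 calls. With age in the model no locus passed (edgeR, 1833 at an unadjusted p under 0.05, lowest adjusted p 0.0610). All 348 calls then retained their sign and an unadjusted p under 0.05, and their median absolute log2 difference went from 1.51 to 1.31. As the 348 were chosen by p in the same 12 libraries, this is a description and no support for the calls. With sex in the model, 120 loci were higher (0.553%) and 46 lower (0.212%). The 17 loci called under each of the 12 omissions include MMP9, SPP1, PADI2, SCIN, DCSTAMP, TREH and MYBPC3, and 9 that carry no gene symbol.

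**Figure D2:**
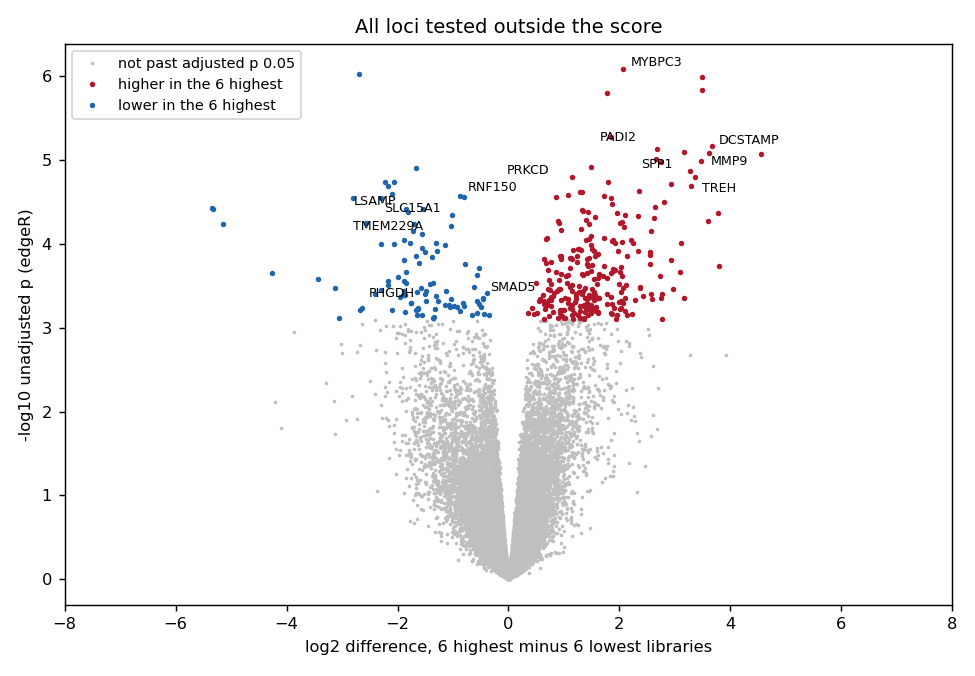
Each point is 1 of the 21689 loci tested, with its log2 difference between the 6 highest and 6 lowest libraries on the x axis and the negative log10 of its unadjusted edgeR p on the y axis. Red points (249) and blue points (99) pass an adjusted p of 0.05, and the labels name some of these loci.

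Macrophage markers that were not in the score lay largely above 0, which is a second reading of the same property and not independent evidence. Of 23 listed markers 17 were tested, 5 passed and all 5 were higher, while 16 of 17 lay above 0 with a median log2 difference of 1.14. Their summed CPM ran from 1644 to 3375 in the highest and from 1173 to 1484 in the lowest, and no marker was at 0 in any of the 12 libraries. The sum is not of markers alone, since the loci of CD68, CTSS and STAB1 also span EIF4A1, ARNT and NISCH. Without castrated male 1 the median was 0.88 and 2 markers passed. Over all loci tested, 47.9% lay above 0 and 1.15% were called higher, shares to set beside the counts of each list below.

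FCER1G, the signalling chain of Fc receptors, had 35.4, 46.7 and 95.7 CPM in the highest and 16.1, 19.9 and 26.2 CPM in the lowest, a log2 difference of 1.40 ± 0.24 (SE, edgeR adjusted p = 0.0196). TYROBP, the adaptor of TREM2 and other myeloid receptors, had 13.9, 17.2 and 44.1 CPM against 5.08, 8.52 and 11.1 CPM at its more abundant locus (1.37 ± 0.29, edgeR adjusted p = 0.0393). LAPTM5, a lysosomal membrane protein of blood cells, had 169, 215 and 463 CPM against 88.0, 105 and 138 CPM (1.14 ± 0.24). CD14, the co-receptor for bacterial lipopolysaccharide, had 27.2, 31.5 and 62.1 CPM against 14.0, 20.0 and 25.2 CPM (0.97 ± 0.22). In each of these 4 genes the sets did not overlap and castrated male 1 was the highest library. TYROBP and CD14 did not pass without castrated male 1 (edgeR adjusted p = 0.0533 and 0.0844).

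The fifth marker called was LYVE1, a hyaluronan receptor of vessel-associated macrophages and lymphatic vessels, at 1.37, which falls outside the naming rule and was chosen after its value was seen. Other markers of resident macrophages were not called. The mannose receptor MRC1 differed by 1.15 (edgeR adjusted p = 0.0901) with overlapping sets, and FOLR2, a folate receptor, by -0.04. CD163 had no locus with its symbol. The locus of CD68 also spans EIF4A1, so its log2 difference of 0.46 is not that of CD68 alone.

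Some of the genes through which leukocytes are recruited and attach were called higher in the 6 highest libraries. CCR1, a receptor for CCL3 and CCL5, had 15.2, 21.03 and 69.5 CPM in the highest and 2.05, 4.65 and 8.09 CPM in the lowest, a log2 difference of 2.64 ± 0.44 (edgeR adjusted p = 0.0189). IL18, a cytokine matured by the inflammasome, had 2.81, 4.68 and 5.07 CPM against 1.40, 1.90 and 2.77 CPM (1.05 ± 0.22). Of 16 tested chemokine and cytokine genes 3 passed, all higher, and 15 lay above 0 with a median of 1.04. With age in the model this median was 0.53. When castrated male 1 was left out, 1 of the 16 passed. CCL2, the ligand that draws monocytes, differed by 1.07 and did not pass (edgeR adjusted p = 0.22).

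Of 12 leukocyte adhesion genes tested, 4 passed, all higher, and all 12 lay above 0 with a median of 0.998. Their summed CPM ran from 595 to 1171 in the highest and from 414 to 514 in the lowest. ITGB2, the shared beta chain of the leukocyte integrins, had 37.7, 57.8 and 138 CPM against 12.3, 19.01 and 27.7 CPM, without overlap (1.73 ± 0.31, edgeR adjusted p = 0.0242). CD48, a ligand of lymphocyte receptors that leukocytes carry, differed by 2.02 ± 0.35. The tetraspanin CD53 differed by 1.32, and FERMT3, the kindlin that activates integrins in blood cells, by 1.12. The integrin alpha chain ITGAM differed by 1.61 and did not pass (edgeR adjusted p = 0.0642). Without castrated male 1, 3 of the 12 passed and the median was 0.69.

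The phagocyte NADPH oxidase makes superoxide from oxygen. NCF1, its p47phox subunit, had 1.95, 3.44 and 8.83 CPM in the highest and 1.18, 1.30 and 2.07 CPM in the lowest (1.56 ± 0.34). The locus of NCF4, the p40phox subunit, differed by 1.41 and also spans PVALB. Of 6 genes tested 4 passed, all higher, with a median of 1.49, and 2 passed without castrated male 1. CYBA and CYBB, also on the list, had no locus with their symbols. VAV1, an exchange factor that switches on RAC proteins, differed by 1.57 ± 0.27 and is among the 4. The locus with the SPI1 symbol, which also spans PSMC3, is among the 6 and differed by -0.07. RAC2, the GTPase of the complex, differed by 0.87 and did not pass (edgeR adjusted p = 0.13).

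Of 14 tested Fc receptor and phagocytosis genes, all 14 lay above 0, as did 47.9% of all loci tested, and the median was 0.54. Against 1.15% called higher over all loci, 3 of the 14 passed (2 when castrated male 1 was left out). Besides FCER1G and VAV1 this was PTPN6, the phosphatase SHP-1 of blood cells, with 16.5, 34.996 and 60.1 CPM against 11.6, 15.4 and 18.7 CPM and overlapping sets (1.15 ± 0.25). Genes for the uptake of dead cells did not pass, with MERTK at 0.39, GAS6 at 0.20 and MFGE8 at 0.11.

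Part of the lysosomal enzymes was called higher. Of 23 tested lysosome and cathepsin genes, 5 passed and 22 lay above 0, with a median of 0.31. CTSB, cathepsin B, was the most abundant of the 5 per transcript length, with a mean of 806 FPKM (fragments per kilobase, scaled to library size) in the highest and 455 FPKM in the lowest. Its CPM were 1218, 1621 and 2463 against 808, 969 and 1113, without overlap, a log2 difference of 0.82 ± 0.18 (edgeR adjusted p = 0.0406). CTSH, cathepsin H, had 206.1, 328 and 626 CPM against 146, 170.5 and 205.8 CPM, so the sets nearly met (1.03 ± 0.21). GUSB, the lysosomal beta-glucuronidase, differed by 0.69 and CTSA, cathepsin A, by 0.63. GRN, the progranulin that lysosomes process, differed by 0.70 and was chosen after its value was seen, as the fifth of the list. Membrane proteins of the organelle, LAMP1 at 0.30 and LAMP2 at 0.19, did not pass. Without castrated male 1, 2 of the 23 passed.

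Of 8 tested subunits of the vacuolar proton pump, which acidifies lysosomes, 1 passed. ATP6V0D2, the d2 subunit known from osteoclasts and macrophages, had 0.78, 1.49 and 4.91 CPM in the highest and at most 0.38 CPM in the lowest, with a median of 0.12 CPM. Female 4 had no read, which at its depth allows up to 0.0816 CPM (3 counts, counting error only). The fitted log2 difference of ATP6V0D2 was 3.78 ± 0.64 (edgeR adjusted p = 0.0189). ATP6V0D1, the widely expressed d1 subunit, differed by 0.03.

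Of 16 listed genes that mark lipid-laden macrophages in fat, 9 had a locus with their symbol. TREM2, GPNMB, LGALS1, PLIN2, ACP5, ITGAX and CD36 had none. The 9 tested genes gave 4 calls, all higher, with a median of 0.89, which was 0.42 without castrated male 8. Their summed CPM overlapped, at 3851 to 4964 in the highest and 3085 to 4989 in the lowest. SPP1, the secreted phosphoprotein osteopontin, had 87.5, 340.2 and 738 CPM in the highest and 26.3, 33.2 and 75.1 CPM in the lowest, a log2 difference of 3.16 ± 0.46 (edgeR adjusted p = 0.0163). Castrated male 8 held the top SPP1 value and castrated male 1 had 489.6 CPM. MMP9, gelatinase B, had 9.47, 17.4 and 68.0 CPM against 0.68, 2.36 and 3.64 CPM (3.48 ± 0.52). MMP9 did not follow the score within the highest set, since castrated male 1, with the highest score, had the lowest MMP9 of the 6. LGALS3, the lectin galectin-3, differed by 1.44 ± 0.26 at its more abundant locus and CD9, a tetraspanin, by 0.89 ± 0.16. APOE, the lipoprotein that macrophages and adipocytes both secrete, differed by -0.28 and FABP5, a fatty acid carrier, by -0.12, and neither passed.

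Among 10 tested genes of cholesterol efflux and its regulators, 2 passed. NCEH1, which splits cholesteryl esters in macrophages, had 18.04, 28.5 and 52.9 CPM against 10.9, 12.2 and 15.2 CPM (1.34 ± 0.23, edgeR adjusted p = 0.0189). OLR1, a receptor for oxidised low-density lipoprotein, had 14.3, 16.2 and 47.6 CPM against 4.22, 6.73 and 8.71 CPM (1.92 ± 0.36). The efflux pump ABCA1 differed by 0.89 and the sterol receptor NR1H3 by 0.44, and neither passed.

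**Figure D3:**
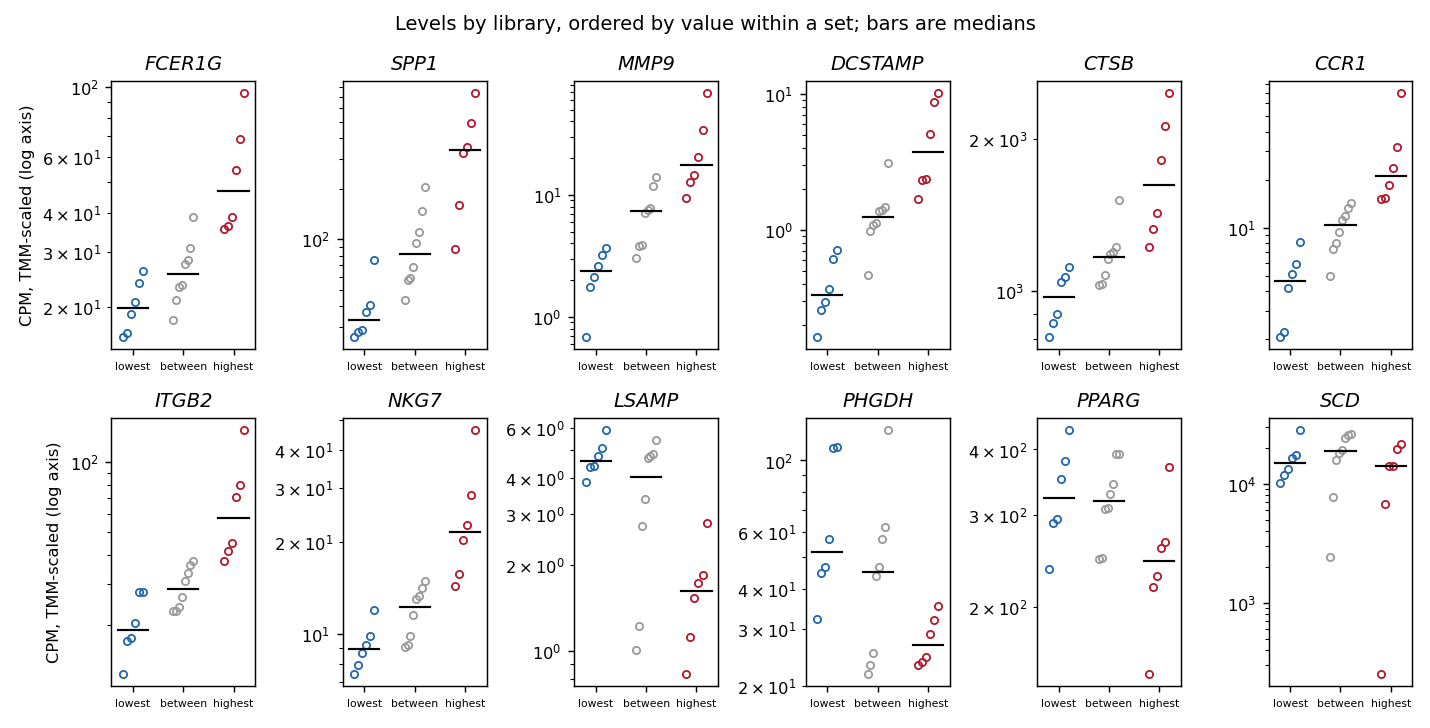
Each panel shows 1 gene in the 6 lowest (blue), 8 in-between (grey) and 6 highest (red) libraries as TMM-scaled CPM on a log axis, with points ordered by value within a set and a bar at the median. The 8 genes from FCER1G to NKG7 do not overlap between red and blue, LSAMP is lower without overlap, and PHGDH, PPARG and SCD overlap, SCD with 1 library at 254 CPM.

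The 12 named loci of smallest p among those higher included MYBPC3, PADI2, SPP1, DCSTAMP, SCIN, MMP9, STX3, PRKCD, TREH, CD72 and ST14, and none of these overlapped between the sets. A choice by smallest p itself favours loci without overlap, which 246 of all 348 calls and 1.97% of all tested loci were. DCSTAMP, a membrane protein needed for the fusion of osteoclasts and of macrophages into giant cells, had 1.70, 3.73 and 10.1 CPM against 0.16, 0.33 and 0.71 CPM (3.62 ± 0.53, edgeR adjusted p = 0.0163). PADI2, which turns arginine in proteins into citrulline, had 19.3, 28.5 and 83.0 CPM against 3.05, 5.27 and 10.1 CPM (2.69 ± 0.39). SCIN, an actin-severing protein, had 18.8, 27.1 and 82.8 CPM against 3.17, 4.65 and 9.13 CPM (2.66 ± 0.39). In these 3 genes castrated male 1 was the highest library, and each passed without it (edgeR adjusted p = 0.0214, 0.0125 and 0.0125).

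TREH, the enzyme that splits trehalose, had 5.94, 26.9 and 58.4 CPM against 1.03, 2.96 and 4.10 CPM (3.35 ± 0.52). ST14, the membrane protease matriptase, had 3.13, 6.66 and 19.4 CPM against 0.73, 0.99 and 1.58 CPM (2.93 ± 0.46). STX3, a syntaxin of membrane fusion, differed by 1.49 ± 0.22, PRKCD, protein kinase C delta, by 1.14 ± 0.18, and CD72, a lectin-like receptor best known from B cells, by 1.80 ± 0.28. The 3 B and plasma cell genes tested lay above 0 with a median of 0.47, and their summed CPM ran from 1.93 to 6.30 in the highest and from 1.31 to 2.28 in the lowest. None of the 3 passed, and their part in the CD72 difference was not tested.

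MYBPC3, a myosin-binding protein of heart muscle, had the smallest p of all named loci, with 3.04, 3.32 and 6.26 CPM against 0.59, 0.91 and 1.10 CPM (2.07 ± 0.25, edgeR adjusted p = 0.00699). Its level per length was low, a mean of 0.532 FPKM in the highest and 0.130 FPKM in the lowest. In RefSeq's Sscrofa11.1 annotation MYBPC3 is the protein-coding neighbour of SPI1, which encodes the myeloid transcription factor PU.1. Whether reads from that neighbour enter the MYBPC3 count was not tested. The locus with the SPI1 symbol also spans PSMC3, a proteasome subunit, and had 198 to 288 CPM in the highest and 202 to 300.4 CPM in the lowest (-0.07, edgeR adjusted p = 0.802), which is not a value of SPI1 alone.

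Of 5 tested myeloid transcription factors 1 passed, IRF5, an inducer of inflammatory cytokines, with 36.2, 45.6 and 78.4 CPM against 20.5, 25.7 and 32.5 CPM (0.94 ± 0.18). KLF4 at 0.26 and CEBPA at -0.03, both expressed in other cells of fat too, did not pass.

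The complement and coagulation list gave 2 calls among 11 tested, both of complement genes, with a median of 0.99. CFP, properdin, which stabilises the alternative complement pathway, had 10.5, 14.8 and 37.8 CPM against 4.33, 5.46 and 6.94 CPM (1.73 ± 0.28, edgeR adjusted p = 0.0169). The locus of C2, which also spans CFB, differed by 1.14 ± 0.26. Its coagulation and fibrinolysis genes did not pass, with F13A1 at 1.27, PLAU at 1.13, F3 at -0.46 and TFPI at -0.90. CFD, the complement factor D that adipocytes secrete, differed by 0.17 with overlapping sets. Toll-like receptors gave 2 calls among 15 tested sensor and inflammasome genes, whose median was 0.50. TLR7, a receptor for RNA, had 3.65, 6.62 and 14.2 CPM against 1.41, 2.15 and 3.24 CPM (1.72 ± 0.34), and TLR2, a receptor for bacterial lipoproteins, had 12.3, 19.9 and 30.4 CPM against 5.66, 7.34 and 12.4 CPM (1.33 ± 0.27). Leaving out castrated male 1, CFP alone of the complement and coagulation list and no sensor gene passed.

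Antigen presentation and interferon genes did not pass. All 5 tested genes of the MHC class II list, its activator CIITA included, lay above 0 with a median of 0.44, and summed to 412 to 1143 CPM in the highest and 377 to 426 CPM in the lowest. Castrated male 1 held the top value of each of the 5. Of 19 interferon-stimulated genes 14 lay above 0 with a median of 0.30, which was 0.05 without castrated male 1. MX2, for example, had 378 CPM in that library and 71.1 to 127 CPM in the lowest.

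Of 12 metalloproteases and inhibitors tested, all 12 lay above 0 with a median of 0.87, which was 0.43 with age in the model. ADAM8, a membrane protease of myeloid cells, was the call besides MMP9, with 5.49, 9.65 and 14.1 CPM against 2.20, 2.98 and 6.10 CPM (1.49 ± 0.27). ADAMTS4, which cuts cartilage proteoglycans, had 67.0 to 1284 CPM in the highest and 140 to 334 CPM in the lowest and did not pass.

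A minority of the genes that mark other white cells was called higher, although most lay above 0. Of 17 T and NK cell genes tested, 3 passed, all higher, 16 lay above 0 and the median was 0.89. Their summed CPM ran from 123 to 229 in the highest and from 110 to 155 in the lowest, with no marker at 0, and whether these cells account for part of the other calls was not tested. NKG7, of cytotoxic granules, had 14.4, 21.5 and 46.3 CPM against 7.41, 8.92 and 11.95 CPM (1.40 ± 0.26, edgeR adjusted p = 0.0242). CTLA4, an inhibitory receptor of T cells, had 0.47, 0.96 and 2.73 CPM against 0.10, 0.23 and 0.38 CPM (2.55 ± 0.50), and CCR7, the lymph node homing receptor that dendritic cells share, differed by 1.77 ± 0.36. The T cell receptor partner CD3D differed by 0.73 and did not pass. Without castrated male 1, 1 of the 17 passed and the median was 0.78, and in the slope over the 8 libraries in between 8 of the 17 lay above 0 with a median of -0.16.

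Among 5 neutrophil and monocyte genes CSF3R, the receptor of the granulocyte growth factor, passed with 3.98, 10.3 and 34.5 CPM against 0.59, 1.24 and 3.72 CPM (3.11 ± 0.57, edgeR adjusted p = 0.0242). S100A8, abundant in neutrophils, had 1.81 to 9.19 CPM in the highest and 4.22 to 12.4 CPM in the lowest, and castrated male 1 was lowest of the 12. No B cell, plasma cell or mast cell gene passed among the 3 and 4 tested.

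Genes that mark the other cells of fat gave no call. Only part of the listed markers had a locus with their symbol, 11 of 19 for adipocytes and 7 of 13 for endothelium. ADIPOQ, FABP4, LPL and LEP had none, nor did CDH5 and VWF. None passed among 7 endothelial, 8 smooth muscle and pericyte, 14 fibroblast and matrix and 11 adipocyte genes tested, and their medians were 0.02, -0.04, 0.01 and -0.13. Their summed CPM overlapped, with adipocyte genes at 5028 to 10600.1 in the highest and 7057 to 9016 in the lowest. PECAM1, an adhesion protein of endothelium, had 973 to 1789 CPM against 1044 to 1491 CPM. FN1, the matrix glycoprotein fibronectin, differed by 0.89 and the crosslinking enzyme LOX by 1.19, and neither passed (edgeR adjusted p = 0.11 and 0.16). Skeletal muscle, skin and red cell genes gave no call among the 2, 2 and 3 tested.

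**Figure D4:**
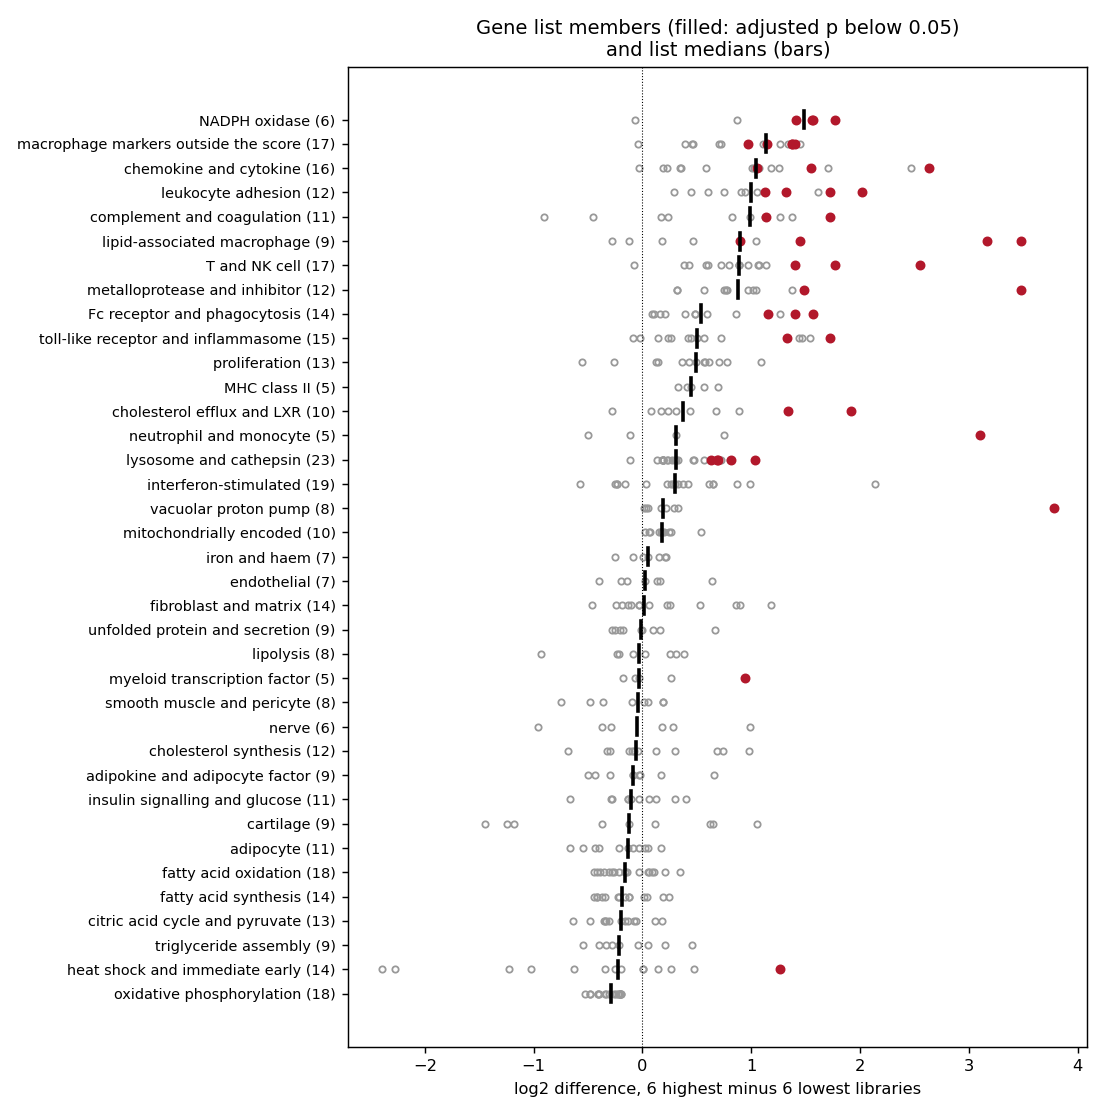
Each line is a gene list with the number of members tested, and circles give the log2 difference of each member between the 6 highest and 6 lowest libraries (x axis), filled where adjusted p is below 0.05. Bars mark list medians, which run from 1.49 for NADPH oxidase genes to -0.29 for oxidative phosphorylation genes, and every filled circle lies above 0.

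Genes of fat storage and energy metabolism were not called in either direction. SCD, the desaturase that makes oleic acid, had 254, 14076 and 21715 CPM in the highest and 10074, 14942 and 28249 CPM in the lowest (-0.37 ± 0.62, edgeR adjusted p = 0.804). FASN, fatty acid synthase, had 83.5, 1868 and 3930 CPM against 501, 2207 and 3543 CPM. Its log2 difference was 0.01 ± 0.64 and turned below 0 under upper-quartile scaling and under library totals. Castrated male 1 was lowest of the 12 in both. PPARG, the regulator of fat cell formation, had 149, 245 and 371 CPM against 236, 323 and 436 CPM (-0.44 ± 0.19, edgeR adjusted p = 0.28).

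The lipases overlapped between the sets as well. LIPE, the hormone-sensitive lipase, had 270 to 971 CPM against 341 to 762 CPM at the most abundant of its 3 loci (-0.08 ± 0.26, edgeR adjusted p = 0.904). PNPLA2, which starts triglyceride breakdown, had 445 to 766 CPM against 550 to 692 CPM (0.02 ± 0.13) and turned below 0 under upper-quartile scaling. G0S2, an inhibitor of PNPLA2, differed by -0.94 and did not pass (edgeR adjusted p = 0.12).

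As lists, fatty acid synthesis (14 genes, median -0.19), triglyceride assembly (9, -0.21), fatty acid oxidation (18, -0.16) and the citric acid cycle (13, -0.20) gave no call. Without castrated male 1 these medians were -0.07, -0.13, -0.16 and -0.09. All 18 tested subunits of oxidative phosphorylation lay below 0, where 47.9% of all tested loci lay above it, but none passed. Their median was -0.29 (-0.21 without castrated male 1), and their summed CPM ran from 2020 to 4126 in the highest and from 3224 to 5262 in the lowest. ATP5F1A, the alpha subunit of ATP synthase, had 346 to 864 CPM against 556 to 1194 CPM. In the slope on the score over the 8 libraries in between, all 18 lay above 0. The 10 mitochondrially encoded loci had a median of 0.18 and none passed. This median ran from 0.047 without female 3 to 0.33 without castrated male 1, and was -0.06 in the slope over all 20 libraries.

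**Figure D5:**
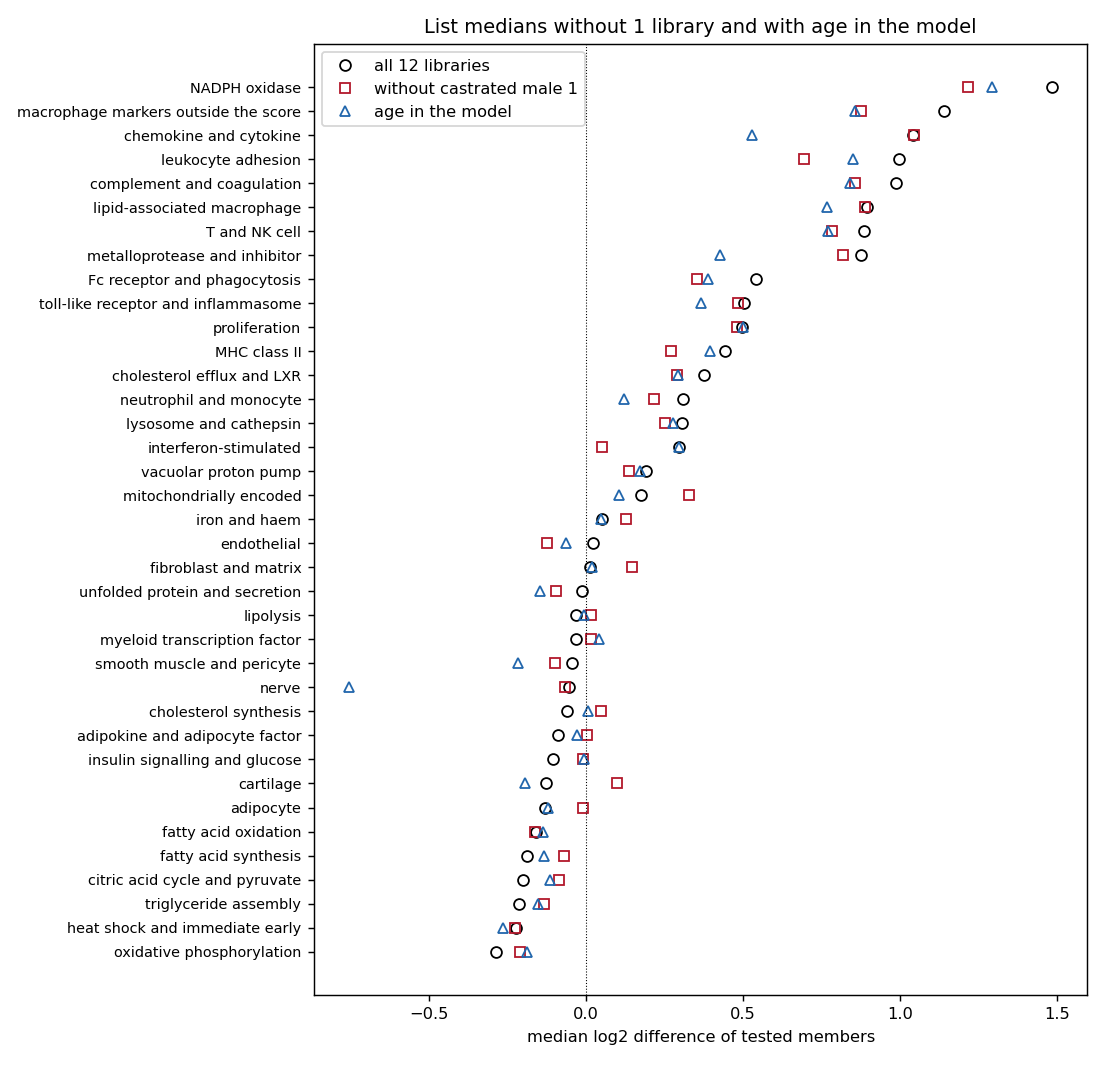
The median log2 difference of each gene list (x axis) is shown for all 12 libraries (circles), without castrated male 1 (squares) and with age in the model (triangles). NADPH oxidase genes go from 1.49 to 1.22 and interferon-stimulated genes from 0.30 to 0.05 without castrated male 1, and chemokine and cytokine genes from 1.04 to 0.53 with age.

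Of 14 heat shock and immediate early genes tested, 1 passed, 6 lay above 0 and 8 below 0, with a median of -0.22. The call was EGR2, an early-response factor that also acts in macrophages, with 18.2, 47.4 and 71.9 CPM against 8.58, 20.1 and 27.7 CPM (1.26 ± 0.29, edgeR adjusted p = 0.0467). EGR2 did not pass with sex in the model (edgeR adjusted p = 0.0931), under upper-quartile scaling (0.0532) or when any 1 library other than female 1 or female 5 was left out (0.0984 without castrated male 1). FOS at 0.26 and EGR1 at 0.0022, which respond within minutes of handling, overlapped. The chaperone partners DNAJB1 and HSPH1 were far apart between libraries of the lowest set, with 81.4 to 1572 CPM and 108 to 3227 CPM, and neither passed (edgeR adjusted p = 0.0761 and 0.174). Proliferation genes gave no call among 13, and 11 lay above 0 with a median of 0.50.

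Of the 99 loci lower in the 6 highest libraries, 71 (71.7%) carried no Ensembl identifier. This was so for 43 of the 249 higher loci (17.3%) and for 43.3% of all loci tested, and the difference between these shares was not tested. XLOC_002597 had 0.10, 0.18 and 0.28 CPM in the highest and 0.68, 1.04 and 1.71 CPM in the lowest (-2.69 ± 0.32, edgeR adjusted p = 0.00699). XLOC_031361 had 2.92, 3.59 and 4.79 CPM against 7.07, 10.1 and 20.9 CPM (-1.67 ± 0.25). On the higher side, XLOC_036822 had 6.89, 12.6 and 36.2 CPM against 0.57, 1.48 and 2.33 CPM (3.48 ± 0.42).

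The 12 named lower loci of smallest p included 5 without overlap between the sets, beside 246 of all 348 calls and 1.97% of all tested loci. Here too the choice by p favours loci without overlap. RNF150, a RING finger protein, had 4.83, 5.61 and 6.01 CPM in the highest and 7.76, 9.76 and 12.4 CPM in the lowest (-0.87 ± 0.14, edgeR adjusted p = 0.0169). LSAMP, a cell adhesion protein named after the limbic system, had 0.83, 1.62 and 2.80 CPM against 3.88, 4.601 and 5.89 CPM (-1.55 ± 0.26). SLC15A1, a transporter of small peptides, had 3.14, 4.82 and 6.97 CPM against 8.47, 9.83 and 11.3 CPM (-1.01 ± 0.17). TMEM229A, a membrane protein, had 0.95, 2.42 and 3.20 CPM against 4.31, 6.80 and 7.61 CPM (-1.56 ± 0.28). INTS2, a subunit of the Integrator complex that processes small nuclear RNA, had 28.5, 32.8 and 40.1 CPM against 40.2, 49.6 and 59.6 CPM, so the sets nearly met (-0.56 ± 0.12).

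The other 7 overlapped by 1 library of the highest set. PHGDH, which starts serine synthesis, had 23.2, 26.7 and 35.3 CPM against 32.3, 52.0 and 109.7 CPM (-1.28 ± 0.28, edgeR adjusted p = 0.0410). SMAD5, a mediator of BMP signals, had 50.8, 58.0 and 63.3 CPM against 61.6, 79.2 and 88.0 CPM (-0.46 ± 0.10). SGCA, a sarcoglycan of the muscle membrane, differed by -0.78, and the membrane lectin CHODL by -1.48. ENOX1, a cell surface oxidase with 2 loci, differed by -0.62 at the more abundant locus. C1QL3, a secreted C1q-like protein, differed by -0.82. NKX6-1, a homeobox factor of pancreatic beta cells, had at most 0.58 CPM in the highest and 1.87 CPM in the lowest (-1.95 ± 0.42). Without castrated male 1, RNF150, LSAMP, SLC15A1 and TMEM229A still passed among the 12 (edgeR adjusted p = 0.0253 to 0.0267).

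The 8 libraries that neither set used gave a check on direction over a narrow range of scores from 4.72 to 5.29. They include the libraries labelled female 10 and castrated male 10, which went against their labels at loci that separated the sexes. The share of loci that kept their sign was not tested. In the edgeR slope on the score over these 8, 302 of the 344 called loci measured there (87.8%) had the sign of the comparison, as did 62.7% of all tested loci. Among them, 215 of 246 higher loci and 87 of 98 lower loci kept the sign. At an unadjusted p under 0.05, 23 higher and 25 lower loci did, and after adjustment 4 loci passed (0.0178%), all of them lower. The slopes of MMP9, DCSTAMP, ATP6V0D2, CCR7, STX3, MYBPC3 and C2 pointed the other way there. None of these passed (unadjusted edgeR p from 0.253 for MMP9 to 0.997 for C2). Over all 20 libraries the slope gave 1056 higher (4.65%) and 781 lower (3.44%) loci, a fit that uses the 12 libraries again.

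Among 8134 named loci of at least 1 CPM on average, those whose log2 CPM followed the score most closely over the 20 libraries were LPXN (Pearson r = 0.98), ITGB2 (0.96), PIK3AP1 (0.96), PADI2 (0.96) and ST14 (0.96). These correlations are a description, since the points share the libraries that built the score. LPXN, leupaxin, an adhesion adaptor of blood cells, had 9.07, 14.0 and 39.0 CPM in the highest and 2.65, 3.63 and 5.92 CPM in the lowest. PIK3AP1, an adaptor that links immune receptors to PI3 kinase, had 25.1, 38.2 and 88.9 CPM against 11.9, 13.9 and 20.9 CPM. Within the 8 libraries in between, r was 0.56 for LPXN, 0.66 for ITGB2, 0.55 for PIK3AP1, 0.56 for PADI2 and 0.44 for ST14.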

How the data were processed

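Backfat RNA of 20 pigs was analysed from 2 tables that the authors deposited: raw read counts and FPKM for 23483 Cufflinks loci. The isoform table was not used here. Cufflinks 2.1.1, DESeq2, TopHat2 2.0.8 and Bowtie2 2.1.0.0 appear in the submitters' processing notes with the build Sscrofa10.2. Strand setting, annotation release and counting rule: not given in the sources used here, so reads of overlapping or near-identical genes could be split between loci. Symbols were matched by Ensembl identifier: 12707 loci carried one, 9360 were named and 474 spanned 2 or more. Of several loci with a symbol, the most abundant was used.

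Total counts ran from 25754778 to 51248122 per library. Counts of the 12 libraries were tested with edgeR 4.0.16 (R 4.3.3; quasi-likelihood, TMM, filterByExpr by set, Benjamini-Hochberg at 0.05), leaving out the scoring loci. The p-values do not allow for the choice of the sets from measured values. DESeq2 1.42.0 and limma 3.58.1 on log2(FPKM + 0.1) or log2(FPKM + 1), for loci reaching 0.5 FPKM in 6 libraries, were alternatives, as were other scalings, no filter, sex or age as covariate, other set sizes, scores without 1 locus, slopes on the score and leaving out each library. Slopes were multiplied by 2.17, the score difference of the sets. The main edgeR fit was tried on simulated counts with known changes. It recovered 45.1% of planted absolute log2 differences of 1 and 79.6% of those of 2, and 4.6% of its calls were false. So a gene that differed by about 1 and did not pass could have been missed. The simulation drew loci independently and did not choose the sets by measured values, so it does not cover that choice. Library properties were compared with exact permutation tests (scipy 1.17.1), correlations with 100000 permutations.

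The members and the 43 gene lists were chosen with earlier results of these data known. Named genes are, per direction, the 12 loci with 1 symbol of smallest p past the threshold, per list the 4 members of smallest p past it, and SCD, FASN, PPARG, LIPE, PNPLA2, SPP1, MMP9, CD163, TYROBP and SPI1 whatever their result. Genes most like the score are the 5 of highest Pearson correlation. List members that did not pass are given as values. Some genes that the rule names are not reported here.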

Additional observations from a re-analysis of the deposited data

Results flagged for a closer look

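In 140 sets of 6 libraries examined, 8 held a library whose gap to the nearest of the others was, relative to the range of the set, over the 95% critical value of Dixon's test for 6 values, and chance alone marks about 1 in 20. Castrated male 1 was so marked among the 6 highest for MYBPC3 at 6.26 CPM and PRKCD at 70.2 CPM, as the highest, and for SCD at 254 CPM and FASN at 83.5 CPM, as the lowest. Castrated male 8 was the highest of that set for C1QL3 at 9.14 CPM, and female 1 the lowest for EGR2 at 18.2 CPM. Among the 6 lowest, female 7 was lowest for EGR2 at 8.58 CPM and castrated male 7 highest for ADAM8 at 6.10 CPM.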

How the results depend on the processing

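Of the 59 named loci called, all 59 passed with DESeq2 and 57 under upper-quartile scaling, and with age in the model none passed. The calls were 249 higher and 99 lower loci. They came to 678 and 462 with DESeq2, 148 and 45 on log2(FPKM + 0.1), 136 and 48 on log2(FPKM + 1), 120 and 46 with sex in the model, and 0 and 0 with age in it. With the next library in place of castrated male 1 they were 113 and 43. Slopes on the score gave 1056 and 781 over 20 libraries, 486 and 251 over 19 without castrated male 1, 1167 and 810 over 18 without the libraries numbered 10, and 0 and 4 over the 8 in between. The slopes over 19 and over 18 libraries were added after seeing the data. Comparing 7 against 7 libraries gave 186 lower loci, a score without LYZ gave 159 lower and a score without C1QA 153 higher. Leaving out 1 library gave 18 to 265 higher and 2 to 111 lower loci. Leaving out a library also lowers the number of samples, and the cause of the smaller counts was not tested. With a score without LYZ the difference in labelled females between the sets was 0.

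Genes that were not called changed sign near 0. FASN was -0.42 on log2(FPKM + 0.1), -0.41 on log2(FPKM + 1), -0.00491 under upper-quartile scaling and -3.57e-05 under library totals, and ran from -0.27 to 0.27 when 1 library was left out. LIPE was 0.098 at 5 against 5, 0.038 at 7 against 7, 0.042 at 10 against 10, 0.034 with the next library in place of castrated male 1, 0.095 without C1QA and 0.031 without LYZ in the score, 0.073, 0.33 and 0.083 in the slopes over 18, 19 and 20 libraries, and -0.27 to 0.065 when 1 library was left out. PNPLA2 was -0.0074 under upper-quartile scaling and ran from -0.044 to 0.11 when 1 library was left out. SCD was 0.062 at 10 against 10 and 0.041 with the next library in place of castrated male 1. The SPI1 locus was 0.00098 with age and 0.052 in the slope over 19.

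In the slope over the 8 libraries in between, some called loci reversed. They were MMP9 at -3.31, ATP6V0D2 at -1.88, CCR7 at -1.01, MYBPC3 at -0.85, STX3 at -0.55, DCSTAMP at -0.54 and C2 at -0.0063. Of loci not called, SCD was at 2.40, LIPE at 1.96 and the SPI1 locus at 0.18. None of these slopes passed (unadjusted edgeR p from 0.253 for MMP9 to 0.997 for C2). Slopes were multiplied by 2.17, the score difference of the sets, while these 8 libraries span scores of only 4.72 to 5.29. The values are thus extrapolated and not directly comparable with the set differences. The list medians of this slope share that scale and were not tested. List medians there were 1.63 for macrophage markers, 3.19 for neutrophil and monocyte, 1.91 for leukocyte adhesion, 1.31 for cholesterol efflux, 1.18 for Fc receptor, 1.37 for myeloid factor, 0.87 for toll-like receptor, 0.90 for MHC class II and 0.37 for proton pump genes. They were -0.16 for T and NK cell, 0.029 for complement and coagulation, 0.28 for metalloprotease, -0.12 for proliferation and 0.39 for heat shock genes. They were 0.61 for endothelial, -1.32 for smooth muscle and pericyte, 0.36 for fibroblast, 0.63 for adipocyte and -2.62 for nerve genes. For metabolism they were 1.85 in fatty acid synthesis, -0.56 in triglyceride assembly, 0.26 in lipolysis, 0.11 in fatty acid oxidation, 1.08 in oxidative phosphorylation, 1.17 in the citric acid cycle, 0.38 in insulin signalling, 0.67 in adipokines and 0.27 in cholesterol synthesis.

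Other list medians that moved by more than the spread were NADPH oxidase at 1.08 (10 against 10) and 1.10 (log2(FPKM + 1)), complement and coagulation at 0.66 (10 against 10) and 0.78 (next library), and neutrophil and monocyte genes at 0.075 (5 against 5). Chemokine and cytokine genes were at 0.65 (10 against 10), 0.61 (log2(FPKM + 1)) and 0.53 (age), metalloproteases at 0.43 (age) and cartilage genes at -1.32 (log2(FPKM + 0.1)). Insulin signalling was at 0.053 (10 against 10) and 0.098 (slope over 19) and lipolysis at 0.23 (slope over 19). Lipid-associated macrophage genes ran from 0.42, without castrated male 8, to 0.97 when 1 library was left out. No paired analysis was possible because the labels pair no animals and the library numbers follow only the order of deposition.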
